A study of Mus musculus with 15 samples.

Results

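The serotonin and dopamine receptor genes described here were 9 listed genes: the serotonin receptors Htr1a, Htr1b, Htr1d, Htr1f, Htr7 and Htr2c, the dopamine receptors Drd2 and Drd3, and the alpha-2A adrenergic receptor Adra2a. They were taken from the array table as rows whose annotation named the gene and no other gene. Of the 9, 8 had such a row, 1 row each, among 22180 genes in the table. No row carried the name Adra2a, which was not analysed here. Htr1f had a mean log2 signal of 4.89 over all arrays and fell among the 25% of genes with the lowest mean, which were not tested, so 7 receptor genes were among the 16635 tested.

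The receptors were measured in thalamic cells sorted by fluorescence from mouse embryos of genotype Gbx2CreER-IRES-EGFP/+::R26lsl-tdTomato/+ on a c57/BL6 background. In this line EGFP and a tamoxifen-inducible Cre are made from the locus of Gbx2, a thalamic homeodomain factor, and tdTomato stays on in any cell whose ancestor had active Cre around the tamoxifen dose. All groups carried 1 modified Gbx2 allele and 1 Rosa26 reporter allele, and no group analysed here lacked them. The groups were red, double-labelled and green cells at E18.5, with 4 mg tamoxifen given to the pregnant female at E9, together with E14.5 red and green cells, with 4 mg given at E9.5. Each of the 5 groups had 3 biological replicates, 1 array each, and the labels give neither the sorting gates nor whether embryos were pooled.

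Serotonin, dopamine and noradrenaline receptors of these families are G-protein-coupled. The Htr1 receptors, Drd2, Drd3 and Adra2a signal through Gi/o proteins and lower cyclic AMP, Htr7 signals through Gs, and Htr2c through Gq. In rodents, sensory thalamic neurons take up and store serotonin around birth without making it, through the plasma membrane transporter Slc6a4 and the vesicular transporter Slc18a2. In mouse, Htr1b is carried on thalamocortical axons, and signalling through Htr1b and Htr1d changes how those axons respond to netrin-1.

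The sequences upstream of the RefSeq start sites of Htr1b and Drd2 are shown because these genes carried the differences between populations, and that of Htr2c because it rose between stages in both. Each is the 250 bases before the start in RefSeq on GRCm38.p6, 5′ to 3′ on the strand of the gene, in lower case with matches to any of 7 motifs in capitals. The motifs, searched on both strands and not overlapping one another in the windows shown, were the TATA box TATAAA, the CCAAT box, the GC box GGGCGG, the E-box forms CACGTG or else CAGCTG, the homeodomain core TAATTA, then the nuclear receptor site AAAGGTCA.
Htr1b, chr9:81633833-81634082, minus strand: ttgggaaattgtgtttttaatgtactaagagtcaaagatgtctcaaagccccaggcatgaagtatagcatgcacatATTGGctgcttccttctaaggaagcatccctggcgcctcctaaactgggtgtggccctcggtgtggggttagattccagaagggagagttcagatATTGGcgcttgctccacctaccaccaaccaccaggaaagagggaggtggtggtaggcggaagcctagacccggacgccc
Drd2, chr9:49340153-49340402, plus strand: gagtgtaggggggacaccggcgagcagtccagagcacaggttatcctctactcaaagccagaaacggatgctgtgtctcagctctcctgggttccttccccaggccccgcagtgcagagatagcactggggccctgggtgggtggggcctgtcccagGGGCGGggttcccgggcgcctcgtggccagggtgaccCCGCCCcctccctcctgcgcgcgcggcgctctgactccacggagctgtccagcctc
Htr2c, chrX:146962263-146962512, plus strand: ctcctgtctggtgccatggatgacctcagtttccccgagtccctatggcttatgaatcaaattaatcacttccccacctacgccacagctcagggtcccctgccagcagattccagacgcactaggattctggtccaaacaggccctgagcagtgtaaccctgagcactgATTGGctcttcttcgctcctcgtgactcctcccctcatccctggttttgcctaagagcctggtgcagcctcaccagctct

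The Htr1b window had 2 matches to the CCAAT box, on either strand, and the Htr2c window had 1. The Drd2 window had 2 matches to the GC box. Of all 32851 promoter windows of the same length, 33.8% held a CCAAT box, 32.7% a GC box, 12.4% a TATA box, 6.02% the first and 13% the second E-box form, and 1.34% the nuclear receptor site. The homeodomain core was present in 4.84% of all windows and in none of the windows of the 8 receptor genes, which says only that these letters are not there. The GC content was 52.4% for Htr1b, 68.8% for Drd2 and 55.6% for Htr2c, against a median of 52.4% over all windows.

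Levels are log2 signals as deposited, given for replicates 1, 2 and 3 of a group or as mean ± SD (n = 3), and log2 differences have a standard error (SE) from the model. Array means lay between 6.17 and 6.19 at E18.5 and between 5.63 and 5.65 at E14.5, so levels of the stages were compared on quantile-normalized values unless said to be as deposited. Deposited levels of both stages printed together are not a comparison of the stages. The first red array of E18.5 had a narrower spread of values (SD 1.34), as had the first double-labelled array (SD 1.31), while the SD of the remaining E18.5 arrays was 1.44 to 1.51, and this pair is called the narrow-range arrays. Markers of thalamic glutamatergic neurons were present in every group, with Slc17a6, the vesicular glutamate transporter 2, at 10.11 ± 0.63 in red, 10.17 ± 0.54 in double-labelled and 10.52 ± 0.15 in green cells at E18.5, and at 9.504 ± 0.043 in red and 9.96 ± 0.18 in green cells at E14.5. In sorted populations a smaller share of cells with a transcript and less transcript per cell cannot be told apart.

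**Figure D1:**
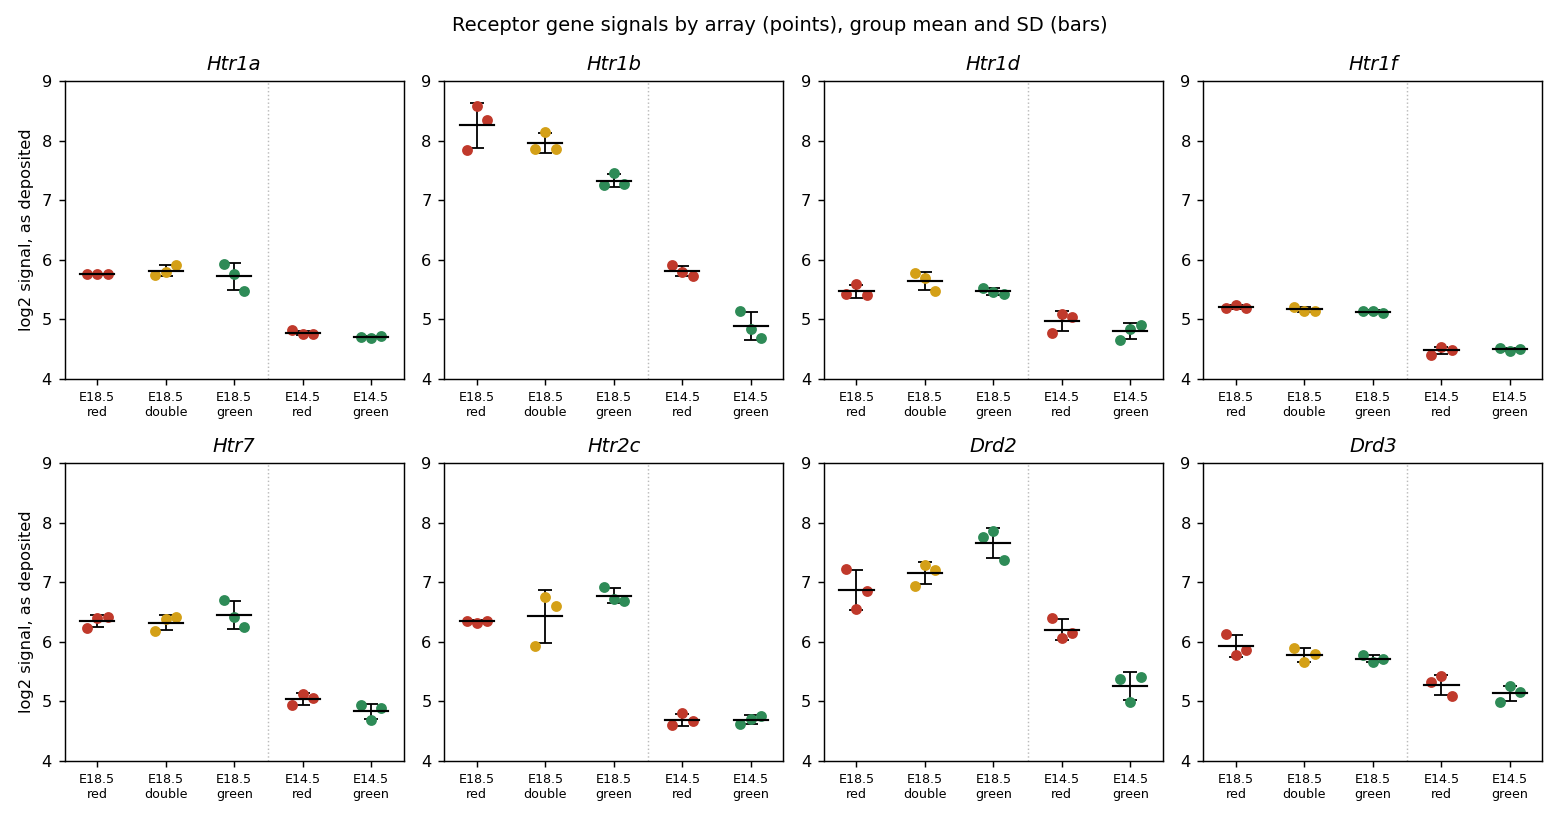
Log2 signal as deposited (y axis) of 8 receptor genes in the 3 arrays of each of 5 groups (points, coloured by population), with group mean and SD (bars); "double" stands for double-labelled cells and the dotted line separates the stages. At E18.5 Htr1b lies at 7.84 to 8.57 in red and 7.25 to 7.45 in green cells, and Drd2 at 6.55 to 7.22 in red and 7.38 to 7.86 in green cells.

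Htr1b, a serotonin receptor that acts at axon terminals, was higher in red than in green cells at both stages, by 1.90-fold each time in the row naming it alone. At E18.5 it stood at 7.84, 8.57 and 8.35 in red cells, at 7.86, 8.15 and 7.86 in double-labelled cells and at 7.25, 7.45 and 7.28 in green cells. All red and all double-labelled arrays lay above all green arrays, and red and double-labelled arrays overlapped. The log2 difference of red against green was 0.93 (SE 0.17), with a limma adjusted p of 0.025 over all genes tested.

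Htr1b was the only receptor gene of 7 past the threshold of adjusted p 0.05 between red and green cells at E18.5, where 0.613% of all genes passed and 0.265% of all genes passed with a higher level in red cells. The median log2 difference was 0.0034 over the 7 receptor genes and -0.0095 over all genes. The call rested on few arrays. Htr1b stayed past the threshold without red replicate 1, but its adjusted p was 0.080 when red replicate 2 was left out and 0.069 when red replicate 3 was. Leaving out the green arrays in turn gave 0.117 for replicate 1, 0.064 for replicate 2 and 0.101 for replicate 3. A fit of the E18.5 arrays by themselves gave 0.187 and 1 weight per stage gave 0.103, while the difference stayed between 0.77 and 1.14 over all 25 planned settings.

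Double-labelled cells were between red and green cells in their mean Htr1b level, at 7.96 ± 0.17 against 8.25 ± 0.38 in red and 7.33 ± 0.11 in green cells. Double-labelled replicates 1 and 3 held the same number to every deposited digit, which bears on that SD. Neither difference passed over all genes, the log2 difference being 0.63 (SE 0.17, limma adjusted p 0.476) against green and -0.29 (SE 0.17, adjusted p 0.9997) against red cells. The 95% interval of the difference was 0.27 to 1.002 against green and -0.66 to 0.07 against red cells.

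At E14.5 Htr1b stood at 5.90, 5.80 and 5.73 in red cells, against 5.13, 4.84 and 4.67 in green cells. The green mean of 4.88 lay below 5.07, the cut used to leave out dim genes. The groups did not overlap, and the log2 difference was 0.93 (SE 0.17, limma adjusted p 0.0069), or 0.82 (adjusted p 0.053) without green replicate 3. The red-green difference of E18.5 and that of E14.5 differed by 0.00019 (SE 0.24, 95% interval -0.52 to 0.52).

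A further row of the table named Htr1b together with D430036J16Rik, so it was not used for the tests above, and its use was chosen after its values were seen. It stood at 8.92, 9.20 and 8.94 in red cells, at 8.47, 8.89 and 8.68 in double-labelled cells and at 7.95, 8.18 and 8.02 in green cells at E18.5. At E14.5 it stood at 6.96, 6.42 and 6.56 in red cells, against 5.66, 5.16 and 5.18 in green cells. With this row in place of the other, red exceeded green cells by a log2 difference of 0.97 at E18.5 (limma adjusted p 0.017) and 1.31 at E14.5 (adjusted p 5.5e-04). The red-green difference at E18.5 minus that at E14.5 was then -0.34 (limma adjusted p 0.848). After each stage mean was subtracted, the rows correlated at r = 0.95 over the 15 arrays, which share their samples and amplification.

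Drd2, the inhibitory dopamine receptor that also serves as the autoreceptor of dopamine neurons, was higher in red than in green cells at E14.5. It stood at 6.40, 6.07 and 6.14 in red cells, against 5.37, 4.99 and 5.41 in green cells, with no overlap. The log2 difference was 0.95 (SE 0.19), or 1.93-fold, with a limma adjusted p of 0.010. Without red replicate 1 the adjusted p was 0.063, and without green replicate 2 it was 0.072, at differences of 0.85 and 0.81.

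At E18.5 the order was the other way round. Drd2 stood at 7.22, 6.55 and 6.85 in red cells, at 6.94, 7.30 and 7.21 in double-labelled cells and at 7.75, 7.86 and 7.38 in green cells. All red and double-labelled arrays lay below all green arrays as deposited, while after quantile normalization red replicate 1, at 7.11, lay above the lowest green array, at 7.08. The log2 difference of red against green was -0.79 (SE 0.19, unadjusted p 8.2e-04) and did not pass over all genes (limma adjusted p 0.089). It was -0.97 without red replicate 1, with an adjusted p of 0.037, and -0.97 without both narrow-range arrays, with an adjusted p of 0.011. Double-labelled cells differed by -0.51 (SE 0.19, adjusted p 0.753) from green and by 0.28 (SE 0.19, adjusted p 0.9997) from red cells.

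The red-green difference of Drd2 was lower at E18.5 than at E14.5 by a log2 value of -1.74 (SE 0.26, limma adjusted p 0.0045). Drd2 was the 1 receptor gene of 7 past the threshold in this test of the stage difference, which 1.05% of all genes passed and 0.505% passed with a negative value. The call held in all 24 other settings, with values from -1.91 to -1.57 and an adjusted p of at most 0.020. Gbx2 had lower means in red than in green cells at both stages, at 6.35 ± 0.86 in red and 8.43 ± 0.17 in green cells at E18.5 (limma adjusted p 0.0052) and at 7.30 ± 0.03 in red and 8.07 ± 0.17 in green cells at E14.5 (adjusted p 0.271), and did not pass the test of the stage difference (adjusted p 0.241). The EGFP used in the sort was made from that locus, and the part of the sort in the Drd2 result was not tested. Among marker lists described below, 4 of 13 midbrain dopamine markers passed the test of the stage difference (Aldh1a1, Foxa1, Slc6a3 and Th). So did 2 of 8 progenitor markers (Mki67 and Top2a) and 1 of 7 habenula markers (Chrnb3), against 1.05% of all genes. These markers had positive values, where that of Drd2 was negative.

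**Figure D2:**
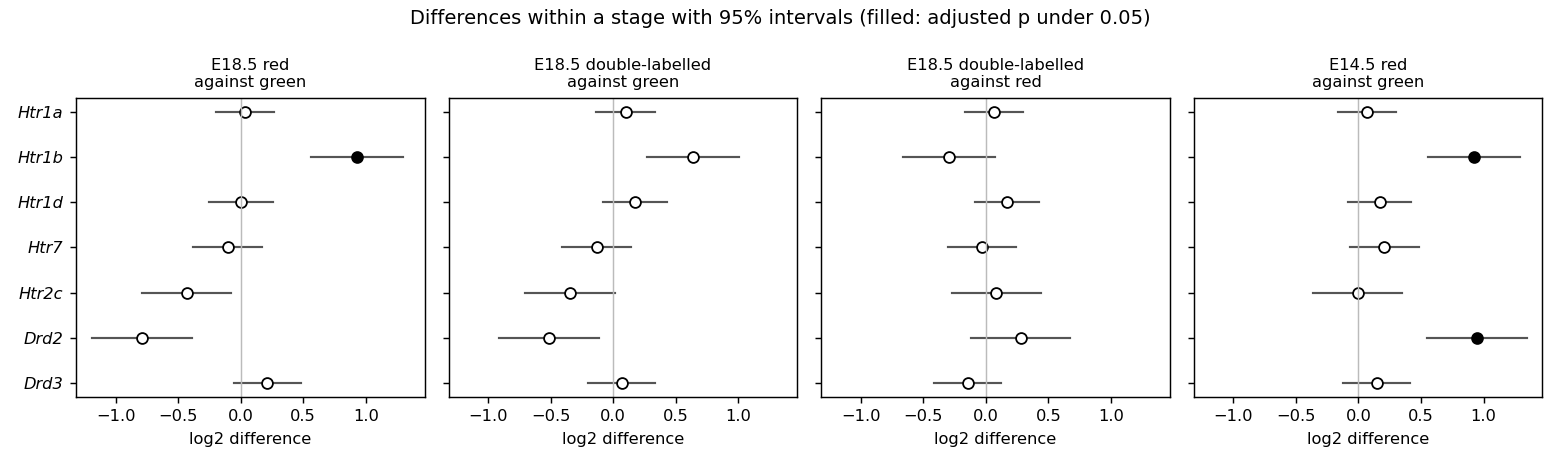
Log2 differences (x axis) of the 7 tested receptor genes (y axis) in the 4 comparisons within a stage, with 95% intervals from limma (lines) and filled points where the adjusted p was under 0.05. Htr1b passed in red against green cells at both stages, at 0.93 each, and Drd2 at E14.5 alone, at 0.95, with -0.79 at E18.5.

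The other receptors differed little between populations of a stage. Htr2c, a Gq-coupled receptor abundant in the choroid plexus, stood at 6.35, 6.31 and 6.36 in red cells, at 5.93, 6.74 and 6.60 in double-labelled cells and at 6.91, 6.71 and 6.69 in green cells at E18.5. The red arrays all lay below the green arrays, and double-labelled replicate 1, a narrow-range array, was the lowest of the 9. The log2 difference of red against green was -0.43 (SE 0.17) and did not pass (limma adjusted p 0.408), though it had an adjusted p of 0.042 when double-labelled replicate 1 was left out of the fit. Double-labelled cells differed from green cells by -0.35 with that array and by -0.10 without it. Choroid plexus markers stood at similar levels in the E18.5 populations, the mean over 4 genes ranging from 5.30 to 5.43 in red, from 5.30 to 5.56 in double-labelled and from 5.30 to 5.45 in green arrays, and 0 of 3 tested passed limma's threshold between red and green cells, with 0 at an unadjusted p under 0.05. The part of choroid plexus cells in these Htr2c levels was not tested.

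Drd3, an inhibitory dopamine receptor, stood at 5.93 ± 0.19 in red, 5.78 ± 0.12 in double-labelled and 5.71 ± 0.06 in green cells at E18.5. Red arrays lay above green arrays by a narrow margin, from 5.78 to 6.13 against 5.65 to 5.77, and the difference of 0.21 (SE 0.12) did not pass (limma adjusted p 0.544). Htr1a, an inhibitory receptor of neuronal cell bodies, stood at 5.75 in red, 5.81 ± 0.09 in double-labelled and 5.72 ± 0.22 in green cells, and 2 of the 3 red values and 1 green value were the same number to every deposited digit. Htr1d, the close relative of Htr1b, stood at 5.47 ± 0.11, 5.64 ± 0.16 and 5.46 ± 0.06 in the same order. Its red-green difference was 0.0034 at E18.5 (95% interval -0.25 to 0.26) and 0.17 at E14.5 (-0.09 to 0.42), intervals that leave out the 0.93 of Htr1b. Htr7, the Gs-coupled receptor, stood at 6.35 ± 0.10 in red, 6.32 ± 0.13 in double-labelled and 6.45 ± 0.23 in green cells. Htr1f, another Gi/o-coupled receptor, ranged from 5.10 to 5.24 over the E18.5 arrays and from 4.40 to 4.54 over the E14.5 arrays. These deposited values hold the shift of all genes between the stages. After quantile normalization the Htr1f means were 4.96 in red, 4.95 in double-labelled and 4.96 in green cells at E18.5. At E14.5 they were 4.69 in red and 4.74 in green cells.

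Between red and green cells at E18.5, 4 of the 7 receptor genes had groups that did not overlap (Htr1b, Htr2c, Drd2 and Drd3), against 15.3% of all genes, and 3 had an unadjusted p under 0.05 (Htr1b, Drd2 and Htr2c), against 10% of all genes. Between double-labelled and green cells 0 of 7 passed limma's threshold and 2 had an unadjusted p under 0.05, Htr1b and Drd2, where 0.0361% of all genes passed and 5.7% had such a p. Between double-labelled and red cells 0 of 7 passed and 0 had an unadjusted p under 0.05, where 0.0902% of all genes passed and 4.52% had such a p. These populations were taken as paired by replicate number, from the correlation of their arrays, since the sample titles give the number only. The tests above came from the fit without pairing. With the number as a block in all groups 32 genes passed in place of 15, again with 0 receptor genes. In that fit the limma adjusted p between double-labelled and red cells was 0.697 for Htr1b and 0.809 for Drd2. At E14.5, 2 of 7 passed, Htr1b and Drd2, both higher in red cells, against 3.52% of all genes (1.89% higher), and 3 of 7 had groups that did not overlap, against 27.9% of all genes. The third was Htr1a, at 4.77 ± 0.03 in red and 4.70 ± 0.02 in green cells.

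Levels at E18.5 were compared with those at E14.5 on values quantile-normalized across all 15 arrays. As deposited, the median gene was higher at E18.5 by 0.60 in red and 0.61 in green cells, and after quantile normalization the median differences were -0.03 and -0.03. Stage, the day of tamoxifen and any difference in how the arrays of each stage were run cannot be told apart.

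Htr1b rose in both populations, by 3.63-fold in red and 3.38-fold in green cells. On the quantile-normalized scale red cells stood at 8.06 ± 0.24 at E18.5 and 6.20 ± 0.09 at E14.5 (limma adjusted p 2.1e-06). Green cells stood at 7.02 ± 0.08 at E18.5 and 5.26 ± 0.26 at E14.5 (adjusted p 1.4e-06). From high to low the groups ran E18.5 red, double-labelled and green, then E14.5 red and green, and among neighbours in this order only E18.5 red and double-labelled cells overlapped.

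Drd2 rose in green cells, where it stood at 7.35 ± 0.23 at E18.5 and 5.67 ± 0.24 at E14.5, a 3.20-fold difference (limma adjusted p 1.7e-05). In red cells it stood at 6.66 ± 0.42 at E18.5 and 6.60 ± 0.18 at E14.5, a log2 difference of 0.06 (95% interval -0.35 to 0.47, adjusted p 0.839). The test of the difference between these changes is the one given above. From high to low the groups ran E18.5 green, double-labelled and red, then E14.5 red and green. Neighbours from double-labelled cells to E14.5 red cells overlapped, while E18.5 green cells lay above and E14.5 green cells below the arrays next to them.

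**Figure D3:**
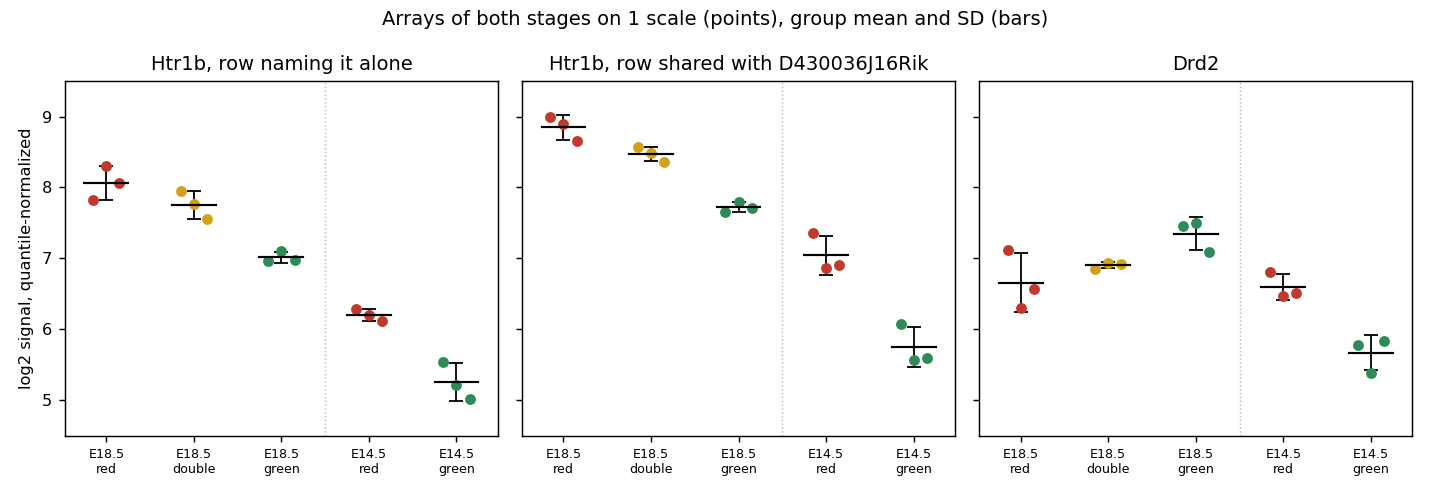
Quantile-normalized log2 signal (y axis) of Htr1b in the row that names it alone, of the row shared with D430036J16Rik, and of Drd2 in the 3 arrays of each group (points), with mean and SD (bars); "double" stands for double-labelled cells. Htr1b is higher at E18.5 than at E14.5 in red and in green cells, whereas Drd2 stands at 6.66 and 6.60 in red cells and at 7.35 and 5.67 in green cells.

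Htr2c and Htr7 rose in both populations. Htr2c stood at 6.05 ± 0.03 at E18.5 and 4.99 ± 0.13 at E14.5 in red cells, and at 6.49 ± 0.13 at E18.5 and 5.03 ± 0.10 at E14.5 in green cells. These are 2.09-fold and 2.75-fold differences, with limma adjusted p of 8.9e-04 and 4.0e-05. Htr7 stood at 6.06 ± 0.15 at E18.5 and 5.40 ± 0.12 at E14.5 in red cells, and at 6.19 ± 0.22 and 5.20 ± 0.15 in green cells, with log2 differences of 0.66 (adjusted p 0.0033) and 0.99 (adjusted p 9.9e-05). All E18.5 arrays lay above all E14.5 arrays for both genes. Of 3 choroid plexus markers tested, Ttr was higher at E18.5 in red cells, where 12.8% of all genes were higher. In green cells 0 of the 3 passed limma's threshold and 1 had an unadjusted p under 0.05. The part of choroid plexus cells in the rise of Htr2c was not tested.

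Htr1a was higher at E18.5 by a smaller amount, 0.36 in red cells (SE 0.11, limma adjusted p 0.031) and 0.46 in green cells (SE 0.11, adjusted p 0.0071). In red cells its adjusted p was between 0.063 and 0.088 without any 1 of the 3 E14.5 red arrays or of E18.5 red replicates 2 and 3, at differences from 0.34 to 0.38. Htr1d and Drd3 did not pass in either population, with differences from -0.12 to 0.11, but had a log2 difference of 0.51 to 0.67 as deposited, past the threshold, where the median gene also stood higher. In all, 4 of 7 receptor genes rose in red cells and 5 of 7 in green cells and 0 fell, where 27.5% of all genes passed in red cells (12.8% higher, 14.7% lower) and 33.9% in green cells (15.7% higher, 18.1% lower). As deposited all 7 passed in both, against 72.4% and 73.5% of all genes. The filter on dim genes used the mean over all 15 arrays. Below its cut of 5.07 lay the deposited E14.5 means of Htr1a, Htr1d, Htr2c and Htr7, and of Htr1b in green cells. Their passing rested on the arrays of other groups, so a count of rises without falls is partly set by the filter.

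Among the other receptors of these families, 0 of 8 serotonin receptors, 0 of 3 dopamine receptors and 0 of 2 adrenergic receptors tested passed limma's threshold in any comparison within a stage. Of all genes, 0.0361% to 3.52% passed in these comparisons. Only 2 of 8 listed adrenergic receptors had a row. At an unadjusted p under 0.05 the largest number in any 1 comparison was 0 for the serotonin, 1 for the dopamine and 1 for the adrenergic receptors. In the E18.5 comparisons 4.52% to 10% of all genes had such a p. At these shares, 0 calls in lists this short do not set them apart from all genes. Of 24 tested genes of Gi/o signalling, through which Htr1b and Drd2 act, 5 were higher and 0 lower in red than in green cells at E14.5, where 1.89% of all genes were higher and 1.64% lower. They were the inward rectifier potassium channel Kcnj6 (log2 difference 1.06), which Gi/o-coupled receptors open, the signalling regulators Rgs8 (0.83) and Rgs9 (0.62), the adenylyl cyclase Adcy1 (0.58) and the Go alpha subunit Gnao1 (0.46), with adjusted p from 0.0030 to 0.021. Kcnj6 stood at 6.12 ± 0.11 in red and 5.05 ± 0.34 in green cells. The list's median difference was 0.23 at E14.5 and -0.03 at E18.5, against 0.0024 and -0.0095 for all genes. At E18.5 0 of 24 passed limma's threshold, against 0.613% of all genes, and 2 had an unadjusted p under 0.05, against 10% of all genes. In the test of the stage difference 0 of 24 passed and 10 had an unadjusted p under 0.05, against 8.96% of all genes. Of 6 genes of Gs and Gq signalling, Gnal, the olfactory-type Gs alpha subunit, was the 1 gene past the threshold at E14.5, higher in red cells (log2 difference 0.85, limma adjusted p 0.0020), and the list's median difference was 0.14.

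Of 9 tested genes that make, store or remove monoamines, 4 were higher and 0 lower in red than in green cells at E18.5 (Th, Slc6a3, Slc18a2 and Ddc) and 5 did not pass, where 0.265% of all genes were higher and 0.349% lower. Of the 5, Maoa and Maob had lower means in red cells, and Slc6a4, Slc6a2 and Slc18a1 had higher means. Maoa stood at 7.62 ± 0.47 in red and 8.36 ± 0.29 in green cells, with all red arrays below all green arrays. In double-labelled cells Th, Slc6a3 and Ddc were lower than in red cells, where 0.0661% of all genes were lower. At E14.5 Slc18a2 alone of the 9 passed, higher in red cells, against 1.89% of all genes. The list's median red-green difference was 0.88 at E18.5 and -0.0078 at E14.5. Slc18a2, which loads monoamines into vesicles, stood at 10.02 ± 0.32 in red, 9.41 ± 0.37 in double-labelled and 8.34 ± 0.32 in green cells at E18.5, and at 9.98 ± 0.14 in red and 8.06 ± 0.81 in green cells at E14.5. Slc6a4, the serotonin transporter, stood at 6.98 ± 1.02 in red, 7.05 ± 0.65 in double-labelled and 5.83 ± 0.09 in green cells at E18.5, with all red and double-labelled arrays above the green arrays. Its red-green difference of 1.14 (SE 0.38) did not pass over all genes (limma adjusted p 0.315). At E14.5 it stood at 4.56 ± 0.04 in red and 4.57 ± 0.04 in green cells. Tph2, the enzyme of serotonin synthesis in neurons, was among the genes left out for a low mean, at 5.02 ± 0.17 in red, 4.97 ± 0.17 in double-labelled and 4.92 ± 0.01 in green cells at E18.5.

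Marker lists of other cell types also held genes past the threshold in red against green cells, where 0.265% of all genes were higher and 0.349% lower at E18.5, and 1.89% higher and 1.64% lower at E14.5. Of 13 markers of midbrain dopamine neurons, a cell type that uses Drd2 as an autoreceptor, 7 were higher and 0 lower in red cells at E18.5 (Aldh1a1, Ddc, Foxa1, Nr4a2, Slc18a2, Slc6a3 and Th), and their mean level ranged from 6.97 to 7.40 in red and from 6.04 to 6.19 in green arrays. At E14.5, Slc18a2 was higher and Foxa1 lower, and the mean ranged from 5.58 to 5.67 in red and from 5.44 to 5.51 in green arrays. The mean over 6 markers of serotonin neurons ranged from 6.51 to 6.90 in red and from 6.05 to 6.18 in green arrays at E18.5, and Slc18a2 alone of 5 tested passed. The median difference of that list was 0.34. These lists share genes, so they are not separate evidence. Th, Ddc, Slc6a3 and Slc18a2 were also among the monoamine genes above, as were Slc6a4 and Tph2 of the serotonin list. Slc18a2 and Lmx1b were in both the dopamine and the serotonin list.

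Of 8 markers of neural progenitors, 0 were higher and 3 lower in red than in green cells at E14.5, where 1.89% of all genes were higher and 1.64% lower. The 3 were the proliferation genes Mki67 and Top2a and the progenitor filament Nes. Vim also had a lower mean in red cells, while Sox2, Pax6, Hes1 and Hes5 had higher means without passing. For Sox2 and Hes1 all red arrays lay above all green arrays. Sox2 stood at 10.39 ± 0.01 in red and 10.19 ± 0.14 in green cells, and Hes1 at 5.30 ± 0.07 in red and 5.07 ± 0.07 in green cells. The mean of the list ranged from 6.43 to 6.53 in red and from 6.80 to 6.96 in green arrays. Of 8 thalamic markers, Gbx2 and Lhx9 were lower in red cells at E18.5, against 0.349% of all genes, with list means from 8.69 to 8.99 in red and from 9.40 to 9.52 in green arrays. Slc17a6, Lhx2, Tcf7l2, Foxp2 and Ntng1 had lower means in red cells without passing. Rora went the other way without passing, at 7.60 ± 0.10 in red and 6.94 ± 0.12 in green cells at E18.5, with no overlap. At E14.5, Rora and Ntng1 were higher and Lhx2 and Lhx9 lower in red cells, with means from 8.81 to 8.91 in red and from 8.89 to 9.04 in green arrays. Of 7 habenula markers tested, Chrnb3 and Nr4a2 were higher in red cells at E18.5, where 0.265% of all genes were higher. Nr4a2 was also among the midbrain dopamine markers above. The mean of the list ranged from 6.27 to 6.39 in red and from 5.95 to 5.98 in green arrays, and its median difference was 0.15. The rest of the list differed less, with higher means in red cells for Pou4f1, Gpr151, Chrnb4 and Tac2 and lower means for Chrna3 and Etv1.

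Of 7 markers of GABAergic and prethalamic neurons, the transcription factor Sp9 was higher in red cells at E18.5 (log2 difference 0.88) and Gad2, an enzyme of GABA synthesis, at E14.5 (0.82). Of all genes 0.265% were higher at E18.5 and 1.89% at E14.5. At E18.5 Gad1, Gad2, Slc32a1 and Dlx2 had higher means in red cells, and Dlx5 and Isl1 lower means. Sp9 stood at 7.29 ± 0.22 in red and 7.33 ± 0.08 in green cells at E14.5. The mean of that list ranged from 6.37 to 6.47 in red and from 6.02 to 6.33 in green arrays at E18.5, and from 5.84 to 6.13 in red and from 5.64 to 5.81 in green arrays at E14.5. Of 6 astrocyte markers, the glutamate transporter Slc1a3 was higher in red cells at E14.5 (1.01), against 1.89% of all genes. It stood at 5.66 ± 0.44 in red cells and at 4.65 ± 0.08, below the filter's cut of 5.07, in green cells. Fabp7 of the same list went the other way without passing, at 7.85 ± 0.58 in red and 9.25 ± 0.19 in green cells. The list's mean at E14.5 ranged from 5.41 to 5.69 in red and from 5.55 to 5.62 in green arrays. The part of these cell types in the Htr1b and Drd2 results was not tested.

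The genes whose pattern was most like that of Htr1b over the 15 arrays, after each stage mean was subtracted, were Slc18a2 (Pearson r 0.96), the intraflagellar transport gene Ift57 (0.93) and the growth factor Vegfc (0.93). Without the narrow-range arrays r was 0.97, 0.94 and 0.94 over 13 arrays. For Drd2 they were Hap1, which encodes huntingtin-associated protein 1 (0.90), the sorting nexin Snx32 (0.90) and Necab1, a neuronal calcium-binding protein (0.89), with 0.91, 0.90 and 0.95 without those arrays. These values describe the arrays, which share their samples and stages.

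**Figure D4:**
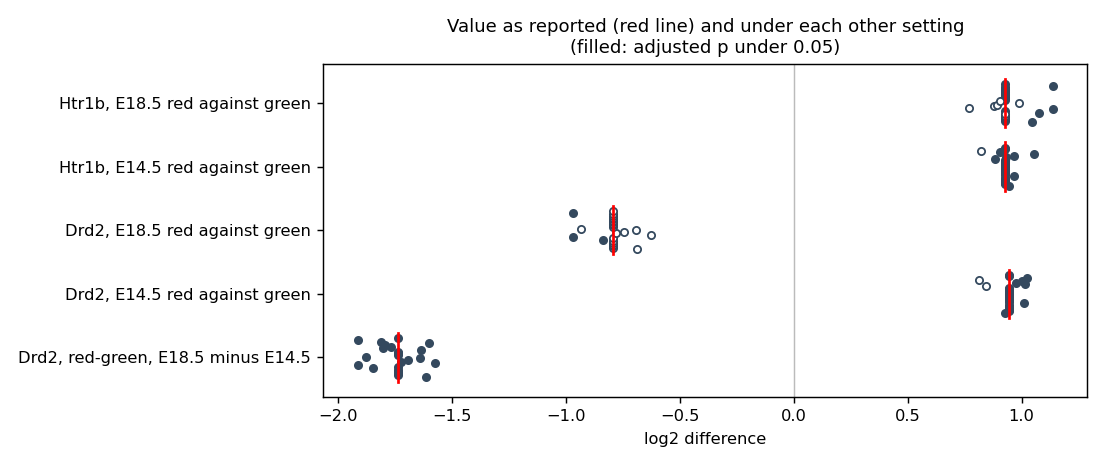
Log2 differences (x axis) of Htr1b and Drd2 in red against green cells at each stage, and of Drd2 for the E18.5 minus E14.5 difference of these, as reported (red line) and under each other planned setting (points, filled where the adjusted p was under 0.05). All values keep their sign, Htr1b at E18.5 lies between 0.77 and 1.14, and the stage difference of Drd2 is filled throughout.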

How the data were processed

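Total RNA of sorted cells was measured on Affymetrix arrays in 15 samples. Per the labels, a Nugen Ovation Pico WTA System V2 kit amplified 10 ng per sample, and per the submitters' processing notes Affymetrix Expression Console was used, with no version, algorithm or genome build given in the sources used here. The log2 signals per transcript cluster deposited by the authors were used without further transformation within a stage and after quantile normalization between stages. Of 33794 rows, 23521 named 1 gene, 1814 several and 8459 none, and the last 2 classes were not used. For each gene the row with the highest mean was taken, and genes in the lowest 25% by mean, below 5.07, were not tested. By Entrez identifier 23328 rows matched RefSeq (GRCm38.p6), used for names, with 0 symbols changed.

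In R 4.3.3, limma 3.58.1 fitted 1 mean per group over the 15 arrays. Residual degrees of freedom were 10, or 13.9 once moderated. Tests were two-sided, with Benjamini-Hochberg adjustment over the 16635 genes and a threshold of 0.05. Figures were drawn with matplotlib 3.10.9. The receptor genes, lists and settings were chosen with earlier results of these data known. All receptor genes were named, genes of the receptor, signalling and monoamine lists were named where past the threshold within a stage, markers of other cell types were named after their values were seen, and like genes were the 3 with the highest r, leaving out predicted genes and small RNAs. The script was tested on simulated data. The number of arrays limits the precision, and no depth applies. Deviations from group means in arrays of the same number correlated at 0.67, 0.50 and 0.49 between E18.5 double-labelled and red cells, taken as paired since every pair was over 0.1. The highest of these, 0.67, joined the narrow-range arrays. The lowest pair was 0.058 for red and green and 0.047 for double-labelled and green cells at E18.5, and 0.069 at E14.5. The fit with the replicate number as a block covered these groups as well.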

Additional observations from a re-analysis of the deposited data

Results flagged for a closer look

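Drd2 was singled out because its red-green difference changed between the stages, by -1.74 on the log2 scale (SE 0.26, limma adjusted p 0.0045), from the test of the difference itself. The value was -0.79 at E18.5, where it did not pass over all genes, and 0.95 at E14.5. No other receptor gene passed this test, with an adjusted p of at least 0.705. Groups of 3 arrays are too small for a check of single outlying arrays.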

How the results depend on the processing

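Results were recomputed under 25 other settings. The stage difference of Drd2 and the rises of Htr1b, Htr7 and Htr2c in both populations and of Drd2 and Htr1a in green cells kept direction and call in all that applied. Between red and green cells at E18.5 the number of receptor genes past the threshold was 1, against 0 when E18.5 arrays were fitted by themselves, 0 with 1 weight per stage, 2 with 1 weight per array, 2 without the narrow-range arrays and 0 to 2 without 1 array. With 1 weight per array 1 gene, Htr1b, also passed between double-labelled and green cells (adjusted p 0.0042) and between double-labelled and red cells (adjusted p 0.049). At E14.5 the number was 2, and 1 to 2 without 1 array. Between stages it was 4 in red cells, against 7 as deposited, where Htr1d turned to 0.51 and Drd3 to 0.65 in red and 0.58 in green cells, since these values hold the shift of all genes. The cause of the other changes was not tested.

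With the replicate number as a block Htr1b passed at E18.5 (adjusted p 0.0047), and the block changed no call of a receptor gene. All genes called ranged over the settings from 12 to 234 in red against green (102 as reported), 0 to 1110 in double-labelled against green (6) and 4 to 446 in double-labelled against red cells (15) at E18.5, from 247 to 2523 at E14.5 (586), and from 76 to 644 for the stage difference (175). The highest of these came with 1 weight per array, except the first, which came with the block.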

Other observations

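Between stages, on quantile-normalized values, 4 of 8 other serotonin receptors were higher and 1 lower at E18.5 in red cells, and the counts were the same in green cells. Of all genes 12.8% were higher and 14.7% lower in red cells, and 15.7% higher and 18.1% lower in green cells. Htr5a, an inhibitory serotonin receptor, was higher by 0.87 in red and 1.29 in green cells, Htr4 and Htr6, which signal through Gs, by 0.70 and 0.66 in red and by 1.02 and 1.03 in green cells, and Htr2a, a Gq-coupled receptor, by 0.63 and 0.73. Htr2b had a log2 difference of -0.49 in red and -0.46 in green cells, and the dopamine receptor Drd4 one of -0.48 in green cells (limma adjusted p 0.0026), but these directions turn with the scaling. As deposited, Htr2b stood at 5.63 ± 0.11 at E18.5 and 5.44 ± 0.08 at E14.5 in red cells and at 5.63 ± 0.15 at E18.5 and 5.46 ± 0.10 at E14.5 in green cells, and Drd4 at 5.30 ± 0.06 at E18.5 and 5.19 ± 0.07 at E14.5 in green cells. Maoa, which degrades serotonin, was higher at E18.5 by 1.24 in red and 1.74 in green cells, and Slc6a4 by 1.87 in red cells (adjusted p 0.0027), with 0.75 in green cells (adjusted p 0.145). As deposited, the E14.5 means of Htr2a, Htr4, Htr6 and Slc6a4 lay below the filter's cut of 5.07 in both populations. These genes passed the filter on their E18.5 levels.

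In the E18.5 arrays 42.9% of rows held the same value to every deposited digit in at least 2 of 9 arrays, against 1.71% of rows in the 6 E14.5 arrays. Htr1a and Htr7 each had 3 such arrays, and Htr1b and Htr1f each had 2. For Htr1b these were double-labelled replicates 1 and 3, both at 7.8643. Drd1 had the same value, 5.49, in all 3 green arrays at E18.5.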
